A study of Arabidopsis thaliana with 18 samples.

Results

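The warm response of *hyl1-2* seedlings was described by comparing 3 small RNA libraries from 27 °C with 3 from 21 °C, 6 of the 18 libraries in the study, over all 161 miRNA entries of the deposited table. *hyl1-2* is a null allele of HYL1 in the Col-0 background, the wild type of the study. In *dcl1-24/hyl1-2*, the third genotype, a dominant allele of the enzyme gene *DCL1* is combined with the same mutation. Whole seedlings were collected at 4 d, after 48 h at 21 °C and a further 48 h at 21 or 27 °C, all in red light (50 μmol m−2 s−1). The 3 libraries of a group were described as biological replicates, and whether they came from separate plantings was not given. The p-values therefore concern the spread between libraries, which the limma fits pooled over all 6 groups of the study. Tissues were not separated, so that fewer cells of a type and less RNA per cell cannot be told apart. The table lists miRNAs alone, and the HYL1 transcript, by which the genotype could be checked, was not measured in it.

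Plant miRNAs are cut from hairpin precursors by DCL1, which HYL1 helps to place its cuts. Each cut leaves a duplex of a guide strand, which is loaded into AGO1 and directs the repression of matching mRNAs, and a passenger strand, which is mostly degraded. Seedlings without HYL1 make many miRNAs poorly, and the question here was which of the miRNAs that they still make differ between the temperatures. Warmth makes the seedling stem elongate through auxin, and several miRNA families act on auxin signalling, leaf development or the change from juvenile to adult growth.

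The miRNAs on which the results turn are shown first, with the seed (bases 2 to 8 from the 5′ end) in capitals, so that strands of a family can be recognised. The sequences were read from RefSeq (TAIR10.1), where all 203 names behind the 161 entries matched an annotated miRNA.
miR408-5p: aCAGGGAAcaagcagagcaug
miR408-3p: aUGCACUGccucuucccuggc
miR393b-3p: aUCAUGCGaucucuuuggauu
miR396b-5p: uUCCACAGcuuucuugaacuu
miR396a-5p: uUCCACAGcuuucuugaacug
miR156a-5p: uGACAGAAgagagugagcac
miR156a-3p: gCUCACUGcucuuucugucaga
miR165a-3p: uCGGACCAggcuucauccccc
miR166a-3p: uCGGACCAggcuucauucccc
miR5026: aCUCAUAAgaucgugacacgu
miR158a-3p: uCCCAAAUguagacaaagca
miR163: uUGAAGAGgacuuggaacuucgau
miR169f-3p: gCAAGUUGaccuuggcucugc

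miR408-5p and miR408-3p are the arms of 1 hairpin (MIR408, AT2G47015, chromosome 2, plus strand, 19319866 to 19319886 and 19319933 to 19319953), which lies opposite to the protein-coding gene AT2G47020. miR393b-3p lies in MIR393b (AT3G55734, chromosome 3, 20691778 to 20691798) and miR396b-5p in MIR396b (AT5G35407, chromosome 5, 13611808 to 13611828), both on the plus strand. miR5026 (chromosome 4, 7844612 to 7844632, plus strand) lies within a longer noncoding RNA gene, AT4G13495. miR165a-3p and miR166a-3p share a seed and differ by a single substitution, U17C from miR166a-3p to miR165a-3p, and miR396a-5p and miR396b-5p differ by G21U, with positions counted from the 5′ end. Reads were aligned without mismatches, so such pairs stay distinct, whereas miR156a-5p stands for 6 identical strands (miR156a to miR156f), and miR166a-3p for those of miR166a to miR166g.

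The level of all miRNAs together was higher in the 27 °C libraries. Values are RPMR, reads of a miRNA per 1000000 reads of 45S rRNA in the same library. Summed RPMR was 6116, 7657 and 3757 at 21 °C and 18740, 10352 and 7850 at 27 °C. Each 27 °C library lay above each 21 °C library, although the lowest of the first and the highest of the second were close. The geometric mean was 2.05-fold higher, with an exact two-sided permutation p of 0.1, the smallest that 3 against 3 libraries allow. The corresponding ratio was 1.01 in Col-0 (exact p = 0.9) and 0.990 in *dcl1-24/hyl1-2* (exact p = 0.9). Without miR5026 the ratio in *hyl1-2* was 1.72 (exact p = 0.3), and the groups overlapped. The number of entries with at least 1 read was 106, 114 and 97 at 21 °C and 138, 120 and 121 at 27 °C.

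Depth moved with temperature as well. The implied miRNA reads were 12127, 13765 and 11040 at 21 °C against 77936, 23319 and 23530 at 27 °C, and the implied 45S rRNA reads were 1982981, 1797623 and 2938392 against 4158872, 2252552 and 2997407. One read was worth 0.24 to 0.556 RPMR, and 3 reads 0.721 to 1.67 RPMR. Replicate 1 at 27 °C had the highest value of its group for 96 of the 139 miRNAs tested, and replicate 3 at 21 °C the lowest of its group for 66. The part of depth and of these libraries in the results was not tested beyond the settings given beside them.

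The 3 most abundant entries, which together held 67.2 to 77.3% of summed RPMR in the *hyl1-2* libraries, took unequal parts in this difference. miR5026, the most abundant, had 1372, 3070 and 1467 RPMR at 21 °C and 7886, 4370 and 3927 at 27 °C. Its share of summed RPMR was 22.4, 40.1 and 39.0% at 21 °C and 42.1, 42.2 and 50.0% at 27 °C, without overlap (exact p = 0.1). miR158a-3p had 1711, 2050 and 1027 RPMR at 21 °C and 2239, 1285 and 1225 at 27 °C. Its RPMR overlapped between the temperatures, while its share was lower at 27 °C in each library, with 28.0, 26.8 and 27.3% against 11.9, 12.4 and 15.6% (exact p = 0.1). miR158a-3p also had a lower mean share at 27 °C in Col-0, 32.2% against 22.3% (exact p = 0.2), and in *dcl1-24/hyl1-2*, 23.7% against 10.7% (exact p = 0.1). miR166a-3p, the repressor of the HD-ZIP III genes that shape leaves and meristems, had 1029, 508 and 410 RPMR at 21 °C and 3256, 1319 and 663 at 27 °C, and its share overlapped, at a mean of 11.5% against 12.9% (exact p = 0.7).

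**Figure D1:**
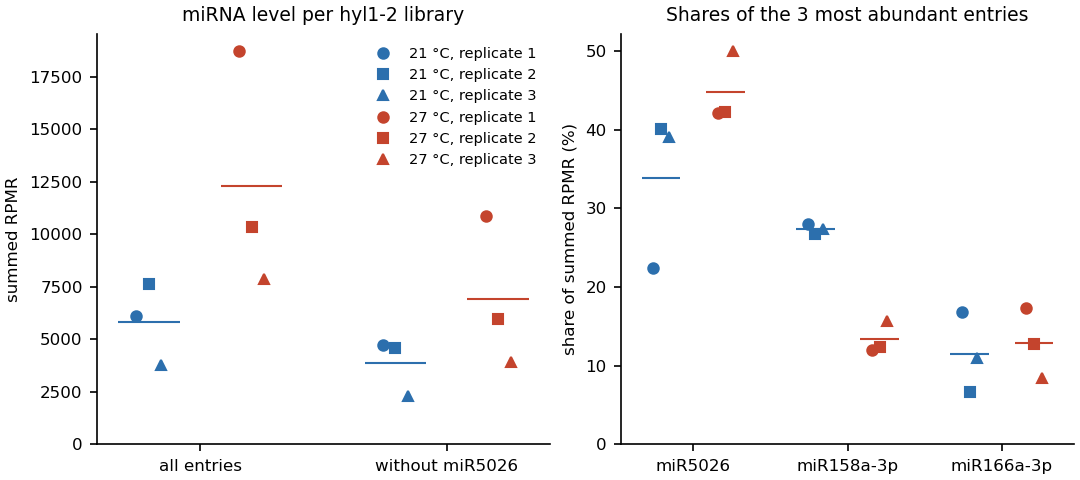
Left, summed RPMR of each *hyl1-2* library over all 161 entries and without miR5026. Right, the share of summed RPMR (%) of the 3 most abundant entries. Points are libraries and lines are group means. The 27 °C libraries lie between 7850 and 18740 RPMR and the 21 °C libraries between 3757 and 7657, and the share of miR158a-3p is lower in each 27 °C library.

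The miRNAs with the smallest p-values were both arms of miR408, miR393b-3p and miR396b-5p, all higher at 27 °C. In limma fits of log2(RPMR + 1) over the 139 entries that averaged 1 RPMR or more, 0 miRNAs were higher and 0 lower at a Benjamini-Hochberg adjusted p under 0.05, and 16 were higher (11.5%) and 0 lower at an unadjusted p under 0.05. At an unadjusted p under 0.01 and a fold change over 2, these 4 were higher (2.88%) and 0 lower. When libraries were weighted by their spread, 3 miRNAs passed the adjusted threshold: miR408-5p (limma adjusted p = 0.0089), miR393b-3p (0.016) and miR408-3p (0.022). The log2 fold change was above 0 for 114 of 139 miRNAs (82%), with a median of 0.58. Fold changes on the log2(RPMR + 1) scale understate differences of scarce miRNAs.

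miR408-3p is the guide strand that represses mRNAs of copper proteins such as plantacyanin and laccases. It had 9.58, 13.9 and 2.72 RPMR at 21 °C and 76.5, 32.4 and 24.7 at 27 °C. All 27 °C libraries lay above all 21 °C libraries, with a log2 fold change of 2.27 (SE 0.75, limma adjusted p = 0.14). The other arm, miR408-5p, had 4.03, 5.56 and 1.36 RPMR at 21 °C, on 8, 10 and 4 reads, and 37.0, 21.8 and 13.3 at 27 °C, on 154, 49 and 40 reads. Its groups did not overlap either, and its log2 fold change of 2.44 (SE 0.74, limma adjusted p = 0.14) was the highest of the 139. The ratio of the arms overlapped between the temperatures. With 1 RPMR added to each arm, which pulls ratios of scarce strands towards 0, log2 of miR408-5p over miR408-3p averaged −0.97 at 21 °C and −0.81 at 27 °C, a difference of 0.16 (SE 0.52, limma adjusted p = 0.84). Without the added 1 RPMR the averages were −1.19 and −0.84, a difference of 0.35 that was not tested.

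miR393b-3p is the passenger strand of a precursor whose guide represses *TIR1* and related auxin receptor genes, and is itself known to repress the vesicle transport gene *MEMB12*. It had 16.6, 16.7 and 6.47 RPMR at 21 °C and 96.7, 54.6 and 49.0 at 27 °C. The lowest 27 °C library was well above the highest 21 °C library, with a log2 fold change of 2.29 (SE 0.75, limma adjusted p = 0.14). miR396b-5p, which represses growth-regulating factor (GRF) genes, had 148, 162.4 and 53.1 RPMR at 21 °C and 752, 409 and 190 at 27 °C. Its log2 fold change was 1.83 (SE 0.70, limma adjusted p = 0.34), again without overlap. miR396a-5p, with the same seed, had 52.4, 110 and 19.7 against 82.5, 157.2 and 91.4 RPMR, and its groups overlapped.

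**Figure D2:**
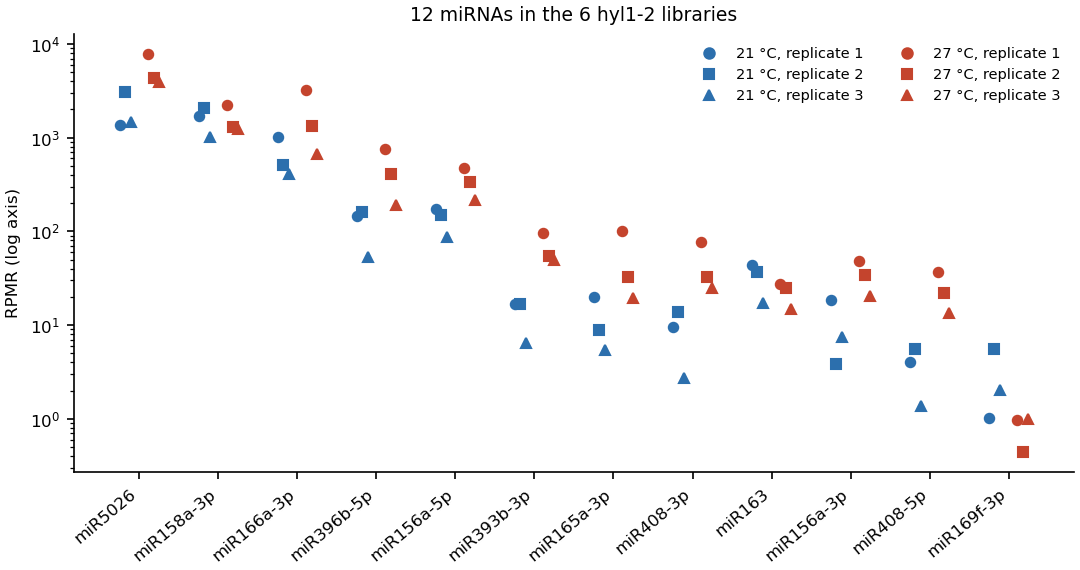
RPMR (log axis) of 12 miRNAs in each of the 6 *hyl1-2* libraries, 3 per temperature. The 27 °C points of miR393b-3p, miR408-3p, miR408-5p, miR396b-5p and miR156a-3p lie above all 21 °C points, those of miR158a-3p and miR163 overlap them, and those of miR169f-3p lie below.

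Of the 139 miRNAs, 23 had all 27 °C libraries above all 21 °C libraries (16.5%) and 1 had them below (0.719%). Those with at least 5 RPMR on average also included miR845a, known in pollen for acting on retrotransposons, with 17.7, 19.5 and 19.1 against 117, 35.96 and 51.0 RPMR (log2 fold change 1.63, SE 0.76, limma adjusted p = 0.40), and miR161.1, which represses pentatricopeptide repeat genes, with 76.7, 57.9 and 41.9 against 303, 118 and 122 RPMR (1.5, SE 0.68, limma adjusted p = 0.40). The 1 miRNA below was miR169f-3p, a strand of the family that represses NF-YA transcription factor genes, with 1.01, 5.56 and 2.04 RPMR at 21 °C and 0.962, 0.444 and 1.001 at 27 °C. It rested on 2, 10 and 6 reads against 4, 1 and 3, and its log2 fold change was −0.94 (SE 0.67, limma adjusted p = 0.49). At the scarce end, 5 entries had 0 reads in each 21 °C library and reads in each 27 °C library: miR829-3p.1, miR841a-3p, miR164c-3p, miR390b-3p and miR827, of which miR841a-3p was too scarce over the 18 libraries to be tested. They held 9, 7, 13, 12 and 6 reads at 27 °C in all. With the 21 °C group set at 3 reads over its libraries, the pooled 27 °C values were 2.14-fold, 1.67-fold, 3.09-fold, 2.86-fold and 1.43-fold of it. The entries were picked for this pattern, and the counting error at 27 °C was left out, so these ratios are neither tests nor lower bounds.

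Adding the members of a family gave 2 families of 78 that rose at an adjusted p under 0.05 (2.56%) and 0 that fell. The miR408 family had 13.6, 19.5 and 4.08 RPMR at 21 °C and 113, 54.2 and 38.0 at 27 °C (log2 fold change 2.45, SE 0.67, limma adjusted p = 0.024). The miR393 family, of which this table holds 3p strands, had 17.1, 17.2 and 6.47 against 97.1, 55.5 and 50.4 RPMR (2.28, SE 0.67, limma adjusted p = 0.030). Each of these sums was higher in all 3 libraries at 27 °C. The miR393 sum was nearly all miR393b-3p, and the miR408 sum held both arms of MIR408. These calls therefore rest on the same strands that did not pass singly (limma adjusted p = 0.14 each), over fewer tests, and are not separate evidence. Both calls were lost with a pseudocount of 5 (adjusted p = 0.068 each) and without replicate 3 at 21 °C (0.48 each), replicate 1 at 27 °C (0.33 each) or replicate 2 at 27 °C (0.083 each). The fold changes without 1 library ranged from 1.86 to 2.86 for miR408 and from 1.85 to 2.50 for miR393. With the median-of-ratios scaling described next, 2 families rose, the same pair, and 4 fell (miR158, miR163, miR169 and miR447).

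To read each miRNA against the other miRNAs of its library, the values were also divided by median-of-ratios factors, taken over the 69 entries with reads in all 18 libraries. The factors were 0.157 to 0.783 in the *hyl1-2* libraries, and the 1 was added after this division. It therefore weighed less on scarce strands than per 45S rRNA reads, and unequally between libraries. The median log2 fold change then moved from 0.58 to 0.21, and 85 miRNAs were above 0 and 51 below. On this scale 5 miRNAs rose (3.6%) and 3 fell (2.16%) at an adjusted p under 0.05, and 12 lay higher (8.63%) and 10 lower (7.19%) without overlap. The risers were miR408-5p, miR408-3p and miR393b-3p, together with the scarce passenger strands miR390b-3p and miR164c-3p, which were singled out after their values were seen. Per 45S rRNA reads miR390b-3p and miR164c-3p had 1.03 and 0.94, so the smaller weight of the added 1 enters their calls. miR408-5p had scaled values of 12.3, 16.7 and 8.67 at 21 °C and 47.3, 46.5 and 37.3 at 27 °C (log2 fold change 1.76, SE 0.42, limma adjusted p = 0.025). miR408-3p had 29.3, 41.7 and 17.3 against 97.6, 69.2 and 68.9 (1.45, SE 0.36, limma adjusted p = 0.026). miR393b-3p had 50.8, 50.1 and 41.2 against 123, 117 and 137 (1.39, SE 0.33, limma adjusted p = 0.025). The replicates of a group lay closer together on this scale than as RPMR for each of these strands.

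The 3 that fell relative to the other miRNAs were miR158a-3p, miR163 and miR169f-3p. miR158a-3p had scaled values of 5225, 6154 and 6540 at 21 °C and 2860, 2745 and 3421 at 27 °C (log2 fold change −0.99, SE 0.27, limma adjusted p = 0.035), whereas per 45S rRNA reads its fold change was −0.01. miR163, which represses methyltransferase genes, had 132, 112 and 111 against 35.3, 53.1 and 41.0 (−1.45, SE 0.35, limma adjusted p = 0.025). Its RPMR was 43.4, 37.3 and 17.4 against 27.7, 24.9 and 14.7, with overlap. miR169f-3p had scaled values of 3.08, 16.7 and 13.01 against 1.23, 0.948 and 2.80 (−1.98, SE 0.50, limma adjusted p = 0.026). Of these 8 calls, 0 were left without replicate 3 at 21 °C, replicate 1 at 27 °C or replicate 2 at 27 °C, and 2 higher and 0 lower without replicate 2 at 21 °C. Without replicate 1 at 21 °C there were 5 higher and 7 lower calls. Scaling to summed miRNA RPMR gave 7 higher (5.04%) and 3 lower (2.16%), and to that sum without miR5026 8 higher (5.76%) and 3 lower (2.16%).

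**Figure D3:**
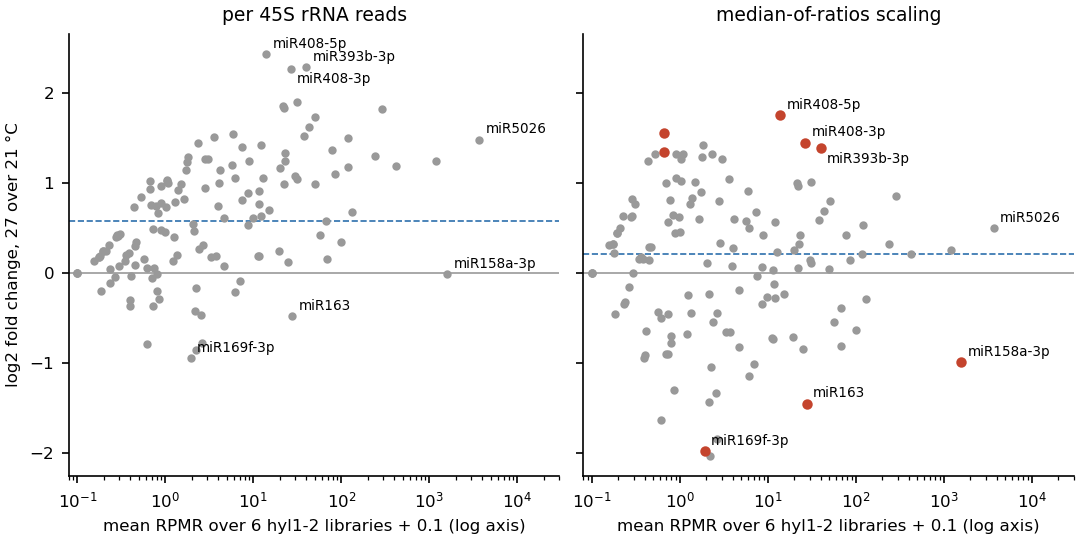
Log2 fold change at 27 over 21 °C in *hyl1-2* against mean RPMR over the 6 libraries plus 0.1 (log axis) for 139 miRNAs, per 45S rRNA reads (left) and with median-of-ratios scaling (right). Red points passed an adjusted p under 0.05, 0 on the left and 8 on the right, and dashed lines mark the medians of 0.58 and 0.21.

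miR156 and miR157, which hold the plant in its juvenile phase by repressing *SPL* transcription factor genes, had values above 0 throughout per 45S rRNA reads. The guide miR156a-5p had 173.5, 149 and 87.8 RPMR at 21 °C and 477, 337 and 215 at 27 °C, without overlap, and its log2 fold change of 1.30 (SE 0.67) did not pass the test (limma adjusted p = 0.42). Against the other miRNAs it was 0.33 (SE 0.31, limma adjusted p = 0.52). The 6 passenger strands had log2 fold changes of 0.77 to 1.86 and a median of 1.44, against 0.58 for all miRNAs tested, and 3 of the 6 had groups without overlap, against 16.5% of all miRNAs tested. With median-of-ratios scaling their median was 0.67, against 0.21 for all miRNAs tested. On that scale 1 of the 6 lay higher without overlap, against 8.63% of all. miR156a-3p had 18.7, 3.89 and 7.49 RPMR at 21 °C and 48.1, 34.2 and 20.4 at 27 °C (1.83, SE 0.79, limma adjusted p = 0.38). miR156b-3p had 12.6, 8.34 and 3.40 against 60.4, 33.3 and 11.7 RPMR (1.86, SE 0.78, limma adjusted p = 0.38), and its lowest 27 °C library lay within the 21 °C group. miR156f-3p, the scarcest of the 3, had 3.03, 2.23 and 1.02 against 18.8, 6.66 and 3.34 RPMR (1.55, SE 0.76, limma adjusted p = 0.42). Of the others, miR157a-3p had 1.33, miR156g 1.0, miR157c-3p 0.92, miR156c-3p 0.77 and miR157a-5p 0.19, and with median-of-ratios scaling the last pair turned to −0.12 and −0.73, as these and miR157c-3p did with scaling to summed RPMR (−0.18, −0.79 and −0.03).

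The balance of passenger over guide strand was tested for 30 pairs as the log2 ratio of the 2 strands, each plus 1 RPMR, so that the scaling to rRNA entered through the added 1 RPMR. Of these, 0 changed at an adjusted p under 0.05 (0%) and 0 at an unadjusted p under 0.05, and the smallest limma adjusted p was 0.59. The change was positive in 13 pairs and negative in 17, with a median of −0.10 on the log2 scale. For miR156a the log2 ratio of passenger over guide averaged −3.83 at 21 °C and −3.30 at 27 °C, a difference of 0.53 (SE 0.58, limma adjusted p = 0.59). For miR396b it averaged −2.35 and −2.44 (difference −0.09, SE 0.80, limma adjusted p = 0.95). Without the added 1 RPMR the differences were 0.67 for miR156a and −0.04 for miR396b, with no test.

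The families that act in leaves and meristems (miR159, miR319, miR396, miR164, miR165, miR166 and miR172) had a log2 fold change above 0 for 19 of 20 entries, with a median of 1.08 and 4 entries without overlap, against 82% and 16.5% of all miRNAs tested. miR165a-3p, with the seed of miR166a-3p, had 20.2, 8.90 and 5.45 RPMR at 21 °C and 101, 32.9 and 19.4 at 27 °C (1.90, SE 0.75, limma adjusted p = 0.36). A single 21 °C library kept its groups from separating. miR159b-3p, which represses GAMYB-like genes, had 312, 306 and 118 against 970, 564 and 245 RPMR, with overlap (1.19, SE 0.64, limma adjusted p = 0.42). miR319a, which represses TCP genes of leaf growth, had 0.69 per 45S rRNA reads and −0.29 with median-of-ratios scaling.

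The auxin-related families (miR160 and miR167, which repress ARF genes, miR390, which acts on ARF genes through *TAS3*, and miR393) had values above 0 for 12 of 13 entries, with a median of 1.03 and 3 without overlap, beside the same 82% and 16.5%. miR167a-5p had 71.6, 60.1 and 12.3 RPMR at 21 °C and 140, 128 and 54.7 at 27 °C (1.37, SE 0.73, limma adjusted p = 0.42), and replicate 3 of each group was far below the others. miR390a-5p had 40.3, 10.6 and 13.3 against 61.3, 35.96 and 25.02 RPMR (1.05, SE 0.75, limma adjusted p = 0.48). miR173-5p, which starts the siRNAs of *TAS1* and *TAS2*, held 0 to 12 reads per library and had a log2 fold change of 0.55 (SE 0.75, limma adjusted p = 0.79). Among the families that repress the silencing genes *DCL1*, *AGO1* and *AGO2* (miR162, miR168 and miR403), 7 of 7 entries were above 0. Their median was 0.82, or 0.15 with median-of-ratios scaling, and 0 were without overlap, beside the same 16.5%. Of these, miR168a-3p had 29.2, 14.5 and 11.2 against 91.4, 55.9 and 25.02 RPMR, with overlap (1.53, SE 0.74, limma adjusted p = 0.42). miR403-3p had 0.34 and turned to −0.63 with median-of-ratios scaling.

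Of the copper-responsive families, the 6 entries of miR398 and miR408 had a median of 0.84, and the 4 of miR398 lay between 0.42 and 0.89. miR398b-3p, which represses copper/zinc superoxide dismutase genes, had 66.1, 77.9 and 15.7 RPMR at 21 °C and 76.9, 44.8 and 58.1 at 27 °C. Its values overlapped, and its log2 fold change was 0.42 (SE 0.71, limma adjusted p = 0.85) and −0.54 with median-of-ratios scaling. Its other arm, the strand of miR398b and miR398c, had 9.08, 6.68 and 2.04 against 17.3, 10.2 and 6.34 RPMR (0.89, SE 0.73, limma adjusted p = 0.54). The 3 phosphate-responsive entries were above 0 with a median of 0.92, among them miR399b with 1.15 and miR2111b-3p with 0.92. The 2 sulfate-responsive entries, miR395a and miR395b, were at or near 0 reads in *hyl1-2*, at no more than 1.01 RPMR in any library.

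The NF-YA, scarecrow-like and pentatricopeptide repeat regulators and the miR822 strands had group medians below that of all miRNAs. The 2 tested NF-YA regulators had a median of −0.65, where miR169a-5p had −0.36 (SE 0.58, limma adjusted p = 0.82). The 4 scarecrow-like regulators had a median of 0.20 and −0.27 with median-of-ratios scaling, and in this group miR171a-5p, without overlap, had 1.24 and miR171a-3p 0.19 (−0.72 when scaled). The 3 pentatricopeptide repeat regulators had 0.40 and −0.24 when scaled, and miR161.2, whose sequence overlaps that of miR161.1 in the same precursor, had 0.40 (−0.24 when scaled). miR822-5p and miR822-3p, which DCL4 cuts from a long hairpin, had 0.16 and 0.64 and turned to −0.81 and −0.28 when scaled. miR863-5p, from the noncoding RNA gene that also holds miR5026, had 1.01, 0.556 and 0 against 4.33, 1.78 and 0.667 RPMR (0.99, SE 0.62, limma adjusted p = 0.45).

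**Figure D4:**
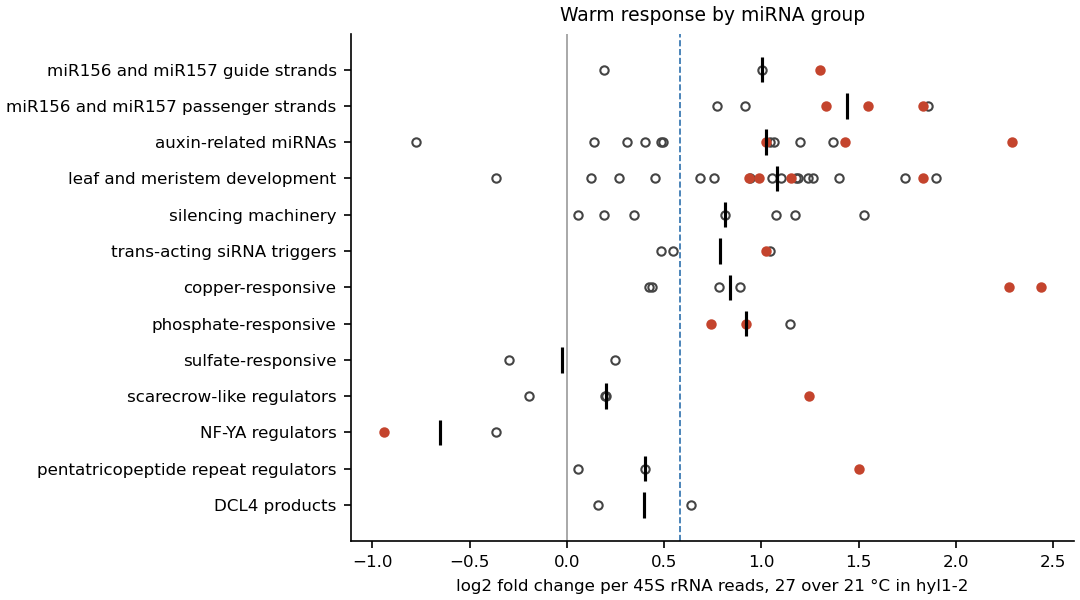
Log2 fold change per 45S rRNA reads at 27 over 21 °C in *hyl1-2* for each tested entry of 13 miRNA groups. Filled red points are entries whose libraries do not overlap between the temperatures, black bars are group medians and the dashed line is the median of all 139 miRNAs, 0.58. The passenger strands of miR156 and miR157 have the highest median, 1.44, and the NF-YA regulators the lowest, −0.65.

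The 67 tested entries of conserved families were above 0 in 61 cases, with a median of 0.94, and the 72 entries of other families in 53 cases, with a median of 0.25. Guide strands had a median of 0.99 (34 of 40 above 0) and passenger strands one of 0.92 (32 of 34). For all miRNAs tested the median was 0.58, with 82% above 0. With median-of-ratios scaling the medians were 0.33 for conserved and 0 for other families. On that scale the strands changed order, with 0.21 for guide and 0.44 for passenger strands.

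The same contrast in the other genotypes drew on other libraries, so the values can be set side by side. miR408-5p had log2 fold changes of 2.44 in *hyl1-2*, 1.49 in Col-0 and 1.26 in *dcl1-24/hyl1-2*. miR393b-3p had 2.29, 2.14 and 1.93 in the same order. miR156a-5p had 1.30, 0.08 and 0.06, and miR5026 had 1.48, 0.05 and 0.35. The differences between genotypes were tested directly, and 0 of 139 miRNAs differed from Col-0 at an adjusted p under 0.05 (smallest limma adjusted p = 0.99), with 4 at an unadjusted p under 0.05. Against *dcl1-24/hyl1-2* the numbers were 0 and 4 (smallest limma adjusted p = 0.73). miR845a had the lowest unadjusted p against Col-0. Its fold change was 1.63 in *hyl1-2*, −0.86 in Col-0 and −0.60 in *dcl1-24/hyl1-2*, and the difference from Col-0 of 2.49 (SE 1.08) did not pass correction (limma adjusted p = 0.99). miR169f-3p fell in Col-0 by 2.82 on the log2 scale (SE 0.67, limma adjusted p = 0.0066) and fell by 3.17 in *dcl1-24/hyl1-2* (SE 0.67, limma adjusted p = 0.00081). In *hyl1-2* it had −0.94, and the difference from Col-0 of 1.88 (SE 0.95) did not pass correction either (limma adjusted p = 0.99). Across the 139 miRNAs, 94 had the same sign in *hyl1-2* and Col-0. As 114 were above 0 in *hyl1-2* and 87 in Col-0, much of this agreement follows from those numbers alone.

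**Figure D5:**
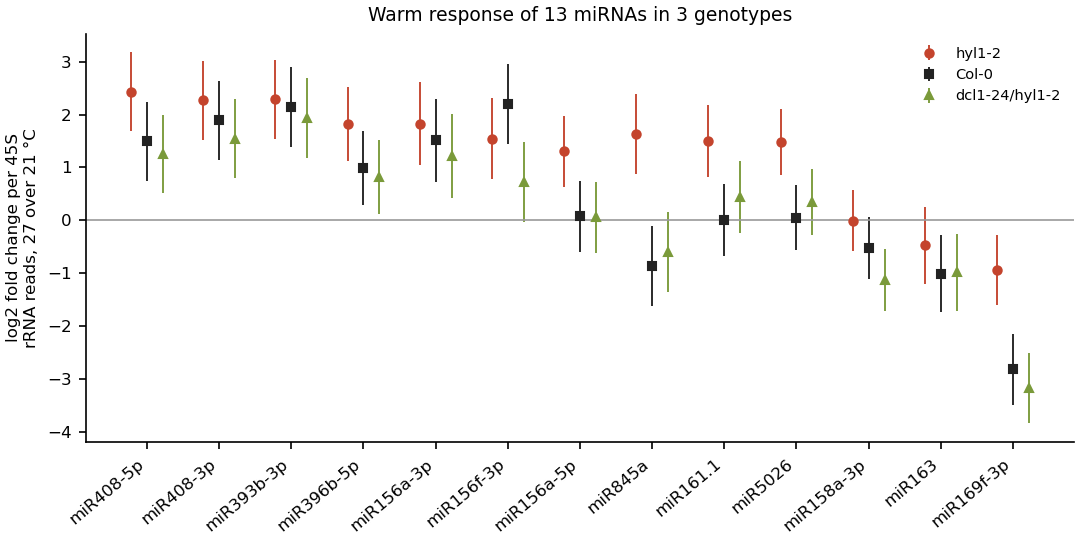
Log2 fold change per 45S rRNA reads at 27 over 21 °C of 13 miRNAs in *hyl1-2*, Col-0 and *dcl1-24/hyl1-2*. Points are limma estimates and bars are their standard errors (3 libraries per temperature and genotype). miR408-5p, miR408-3p and miR393b-3p are above 0 in each genotype, and miR169f-3p is below 0 in each.

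The difference was also described by abundance, where the added 1 RPMR pulls scarce entries towards 0. The median log2 fold change was 0.21 for the 54 entries under 1 RPMR in *hyl1-2*, 0.74 for the 43 from 1 to 10, 1.06 for the 33 from 10 to 100 and 1.24 for the 9 over 100. With median-of-ratios scaling, where the 1 was added after the division, the medians were 0.31, 0.07, 0.15 and 0.26. By first base, which in plants bears on the AGO protein that takes up a strand, the medians were 0.60 for the 80 entries with U, 0.62 for the 27 with A, 0.46 for the 18 with C and 0.93 for the 14 with G. With median-of-ratios scaling they were 0.19, 0.30, 0.44 and 0.19 in the same order. The median levels in *hyl1-2* also differed, at 2.35, 1.72, 0.72 and 8.61 RPMR, and uptake by AGO proteins was not tested.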

How the data were processed

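Small RNA of 15 to 40 nt was sequenced from whole seedlings. As the authors describe, cutadapt 3.0 trimmed the adapters, ShortStack placed the reads on Araport11 without mismatches, and differential miRNAs were called with DESeq2 1.35.0. The deposited values are a form of RPM: miRNA reads were divided by the authors by the 45S rRNA reads of the library and multiplied by 1000000 (RPMR). Values were whole multiples of the smallest one of a library (largest distance 1.1e-10), which gave the implied reads. These served to describe depth only.

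log2(RPMR + 1) of the 139 entries that averaged 1 RPMR or more in the 18 libraries was fitted with limma 3.58.1 (R 4.3.3), with a mean for each of 6 groups and a trended variance, and p-values were adjusted over the 139. The 22 other entries were not tested. Single values were compared by exact permutation. The fit was tested on simulated data, with large changes in abundant entries and no shifts between whole libraries. That test therefore does not cover the spread between replicates seen here. Members, lists and tests were chosen with earlier results of these data known. Named miRNAs were those at an unadjusted p under 0.01 and over 2-fold, up to 8 per direction without overlap, the 8 most abundant, up to 2 per list, miR156 and miR157, and those the study names. Lists of families cited as warm-responsive gave medians of 0.76 (higher, 7 entries) and 1.15 (lower, 8 entries). Alternatives were other pseudocounts, filters, scalings, weights, a replicate block and leaving out libraries.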

Additional observations from a re-analysis of the deposited data

How the results depend on the processing

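Per 45S rRNA reads, adjusted calls stayed at 0 in each direction with pseudocounts of 0.5 and 5, no filter, minima of 5 RPMR or of 1 RPMR within *hyl1-2*, a fit of the 6 *hyl1-2* libraries, the replicate block and each library left out, but not under other scalings or array weights. Scaling to summed RPMR gave 7 higher and 3 lower adjusted calls, 7 and 7 at an unadjusted p under 0.01 and over 2-fold (the unadjusted threshold), 11 and 15 without overlap and a median of 0.18. Without miR5026 in the sum these were 8 and 3, 9 and 3, and 4 lower without overlap. Median-of-ratios scaling gave 5 and 3, 7 and 5, and 12 and 10, and 6 families (2 higher and 4 lower). Array weights gave 3 higher adjusted calls and 12 by the unadjusted threshold. Why these differ was not tested. A pseudocount of 5 left 0 families.

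With a library left out, the summed level differed by 0.69 to 1.31 (log2), the median log2 fold change was 0.38 to 0.74, calls by the unadjusted threshold numbered 0 to 7, entries higher without overlap 25 to 53, lower 1 to 4, and families 0 to 3. Leaving out a library makes separate groups more frequent by construction. Relative to the other miRNAs (alternatives chosen after seeing the data), there were 0 to 5 higher and 0 to 7 lower calls with a library left out, 3 higher with a pseudocount of 5, with either other minimum and in the fit of the 6 libraries, where 1 was lower. Differences between genotypes stayed at 0 calls under each setting run.

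Of 701 fold changes for 42 named miRNAs under 17 settings, 662 kept their direction and 39 did not. With summed scaling, miR319a had −0.34, miR157a-5p −0.79, miR403-3p −0.69, miR398b-3p −0.60, miR171a-3p −0.78, miR161.2 −0.32, miR822-5p −0.86, miR822-3p −0.33, miR156c-3p −0.18 and miR157c-3p −0.026. Without miR5026 in the sum, the first 8 had −0.092, −0.55, −0.44, −0.34, −0.53, −0.23, −0.61 and −0.088. With median-of-ratios factors, the first 9 had −0.29, −0.73, −0.63, −0.54, −0.72, −0.24, −0.81, −0.28 and −0.12. With a library left out, miR158a-3p ranged from −0.30 to 0.20, miR157a-5p from −0.26 to 0.56, miR173-5p from −0.013 to 1.05, miR398b-3p from −0.29 to 0.83, miR171a-3p from −0.29 to 0.44, miR161.2 from −0.21 to 0.95 and miR822-5p from −0.47 to 0.49.

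Same-numbered libraries at 21 and 27 °C had correlations of their deviations of 0.18, 0.042 and 0.36, so the numbers were not taken to pair them. With the replicate block, 0 miRNAs passed the adjusted threshold, 3 passed the unadjusted threshold and 2 families were called, and relative to the other miRNAs 5 were higher and 4 lower. Tests on counts were planned only if whole reads could be recovered from enough low values, which take 100 per library, and were not run, since no library had more than 93. Depth limits what entries of a few reads can show.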
